A study of Mus musculus with 8 samples.

Results

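Macroautophagy and lysosomal degradation form 1 disposal route of the cell, and its transcripts were followed here in white adipose tissue of mice that lack Sel1l in adipocytes. The set was a fixed list of 42 genes, 20 for the core machinery that builds autophagosomes, 20 for proteins of the lysosome and 2 for the transcription factors Tfeb and Tfe3. Genes entered the list by their known function, and the list was drawn up with earlier results of these data known. Of these genes 40 were measured, out of 18820 genes on the array with a probe set of their own; Becn1 and Ctsb had none and are not analysed here. Each gene stands for its brightest single-gene probe set.

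The tissue came from 4 Sel1l-/- mice and 4 wildtype (WT) mice, all male, of a mixed C57BL/6N and C57BL/6J background and fed a high fat diet for 5 weeks, and each mouse had its own array. In the Sel1l-/- mice a floxed Sel1l gene was removed by Cre under the adiponectin promoter, which acts in adipocytes, so vessels, immune cells and fibroblasts of the tissue keep the gene. The sources used here do not give age, fat depot or whether the WT mice carried the floxed allele. Values are log2 array intensities. The genotype label held on Sel1l itself, whose protein joins the ubiquitin ligase Hrd1 in the endoplasmic reticulum (ER) and serves ER-associated degradation: it averaged 9.78 ± 0.21 in Sel1l-/- mice and 10.57 ± 0.07 in WT mice (SD, n = 4 each; limma adjusted p = 0.0109). The deleted exons and probe positions are unknown here. Each mouse has a code of a letter and a number, and the call on Sel1l was lost when the fit was blocked by letter (adjusted p = 0.151) or by number (adjusted p = 0.0813). The log2 fold change was -0.98 and -0.80 in these fits, against -0.79 without a block. Adipocyte markers such as Adipoq and Plin1 were bright on every array, and their list of 8 averaged 12.24 to 12.62 in Sel1l-/- mice and 12.54 to 12.78 in WT mice. Each of the 8 had a lower mean in Sel1l-/- mice.

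In autophagy, the ULK kinase complex starts a membrane sac, a lipid kinase complex marks it with a phosphoinositide, and a pair of ubiquitin-like conjugation systems attach LC3 and GABARAP proteins to it. The closed autophagosome fuses with lysosomes, where acid hydrolases digest the cargo. ER membrane and misfolded ER proteins that ER-associated degradation does not remove can also take this route. TFEB and TFE3 bind E-box elements before many lysosomal and autophagy genes and raise their transcription when nutrients are short or lysosomes are stressed. In fat, lysosomal acid lipase also breaks down lipid taken up by macrophages.

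Some promoters of the set, fewer than 1 in 3 of the windows at hand, hold the E-box core through which TFEB and TFE3 are known to act, and the stretches that hold it more than once are shown for that reason. RefSeq promoter windows (assembly GRCm38.p6, 250 bases before to 50 after a gene start) were at hand for 34 measured genes, 39 windows in all. The E-box core, CACGTG, which reads the same on both strands, was found in 12 of the 39 windows (30.8%), against 2349 of all 32851 windows (7.15%). It lay in 8 of 19 lysosomal windows, in 4 of 15 autophagy core windows and in 0 of the 5 windows of Tfeb and Tfe3. The longer GTCACGTG, which contains the core and was sought on both strands, was in 9 of 39 windows (23.1%), against 2.25% of all windows. The full palindromic CLEAR element was in 0 of 39, against 0.326% of all, and the ATF4-type element TGATGCAA (both strands) in 0 of 39, against 0.895% of all. A match is only a match of letters. The 5 windows with at least 2 cores upstream of the start are printed 5′ to 3′ on the gene's strand, cores in capitals.
Lamp1, chr8:13159090-13159160, + strand: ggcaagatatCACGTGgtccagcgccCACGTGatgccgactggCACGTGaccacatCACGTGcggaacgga
Mcoln1, chr8:3500438-3500489, + strand: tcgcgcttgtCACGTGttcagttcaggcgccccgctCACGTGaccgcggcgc
Ctsd, chr7:142387910-142388077, - strand: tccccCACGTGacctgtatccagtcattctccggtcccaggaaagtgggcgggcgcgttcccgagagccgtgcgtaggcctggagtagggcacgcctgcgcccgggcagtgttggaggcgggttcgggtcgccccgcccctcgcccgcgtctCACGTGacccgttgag
Gla, chrX:134601184-134601242, - strand: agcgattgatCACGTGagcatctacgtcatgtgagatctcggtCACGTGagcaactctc
Atg3, chr16:45158725-45158773, + strand: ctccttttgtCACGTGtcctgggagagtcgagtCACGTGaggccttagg

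**Figure D1:**
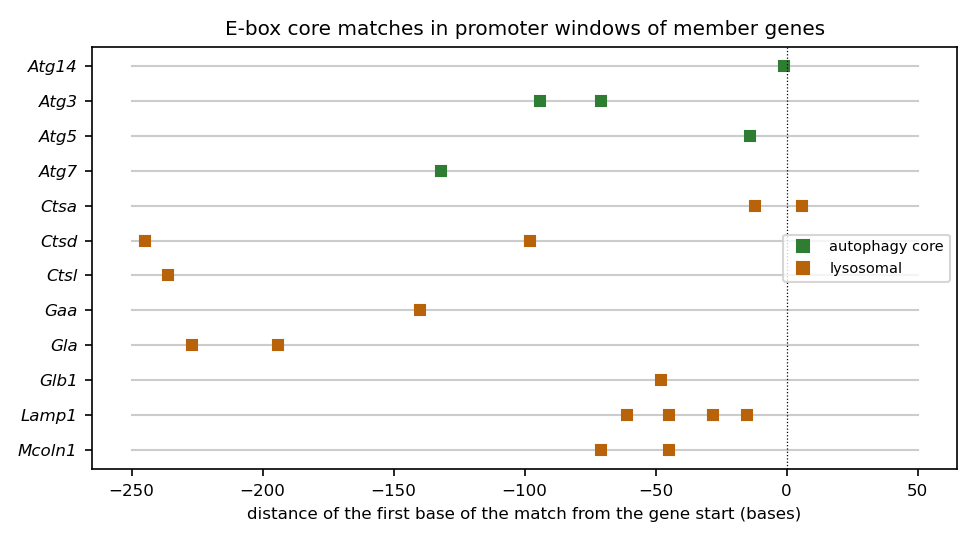
Positions of the E-box core in the promoter windows of the 12 genes that hold it; the x axis is the distance in bases of the first base of a match from the gene start, grey lines are the windows, and colours separate autophagy core from lysosomal genes. Lamp1 has 4 cores, all before its start.

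None of these transcripts passed the threshold between Sel1l-/- and WT mice. Of the 40 measured genes, 0 were higher and 0 lower at an adjusted p under 0.05 in limma's moderated test, where 1.72% of all genes were called, 1.04% higher and 0.685% lower. At an unadjusted p under 0.05 there were 3 of 40 (7.5%), Atg13 and Atg5 higher and Wipi1 lower, against 15.0% of all genes (7.15% higher and 7.85% lower). The arrays of the groups did not overlap for 3 genes, higher in Sel1l-/- mice for Atg13 and Gabarap and lower for Wipi1, which is 7.5% of the set, against 10.3% of all genes (5.22% higher and 5.07% lower). The median log2 fold change (Sel1l-/- minus WT) was -0.04 over the 19 autophagy core genes and 0.06 over the 19 lysosomal genes, beside -0.0037 over all genes. Without Sel1l-/- 4 these medians were 0.0035 and -0.01. The share of genes called on the whole array depends on the fit, and was 195 higher and 129 lower genes in the main fit. A replicate block built from the numbers in the titles gave 358 and 367, and still no member passed (lowest limma adjusted p = 0.0709). Array weights gave 347 and 219, with 1 member, Atg13, past the threshold. Blocking by the number of the mouse code gave only 8 and 3.

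A missed threshold does not show equal levels, so the 95% intervals of the log2 fold changes are given too. In the fit without a block they lay within 1.5-fold in either direction (0.58 on the log2 scale) for all 19 autophagy core genes. The same held for Tfeb and Tfe3 and for 14 of 19 lysosomal genes, where 84.4% of all genes had such an interval. The 5 lysosomal genes with wider intervals were Gla, Gusb, Lipa, Npc2 and Asah1. For these 5 genes a change beyond 1.5-fold is not excluded, upwards for Gla, Gusb, Lipa and Asah1 and downwards for Npc2.

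Among the initiation genes, Atg13, the subunit that holds the ULK kinase complex together, had the smallest p of the whole set. It read 10.60, 10.46, 10.43 and 10.32 in Sel1l-/- mice 1 to 4, against 10.20, 10.11, 10.21 and 10.22 in WT mice 1 to 4. Every Sel1l-/- array lay above every WT array, by the narrowest margin in Sel1l-/- 4. The difference came to 0.27 on the log2 scale (standard error 0.07, adjusted p = 0.111), and Atg13 passed the threshold in the fit with array weights only (adjusted p = 0.0465). The kinases themselves differed less, with log2 fold changes of 0.0047 for Ulk1 and -0.04 for Ulk2 (standard errors 0.06 and 0.08).

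The next step makes and reads phosphatidylinositol 3-phosphate. Pik3c3, the lipid kinase, differed by -0.13 on the log2 scale (standard error 0.07), and Atg14, which brings it to autophagosome sites, one of 0.04 (standard error 0.08). Wipi1, a reader of this lipid, read 9.29, 9.28, 9.33 and 9.41 in Sel1l-/- mice, against 9.44, 9.53, 9.46 and 9.70 in WT mice. All Sel1l-/- arrays of Wipi1 lay below all WT arrays, with Sel1l-/- 4 and WT 1 nearest to each other. Its log2 fold change was -0.21 (standard error 0.07, adjusted p = 0.225). The related reader Wipi2, which recruits the LC3 conjugation machinery, had one of -0.03, and Atg9a, a lipid scramblase of the vesicles that seed the sac, one of -0.11 (standard error 0.08 for each).

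Of the 6 measured conjugation genes 5 had negative and 1 a positive log2 fold change, none past the threshold. Atg5, the partner of Atg12 in the complex that directs LC3 to membranes, was the positive member. It read 8.55, 8.41, 8.46 and 8.37 in Sel1l-/- mice, against 8.42, 8.23, 8.12 and 8.21 in WT mice, and the groups overlapped because WT 1 lay among the Sel1l-/- arrays. The log2 fold change of Atg5 was 0.20 (standard error 0.08, adjusted p = 0.274). Atg7, the E1-like enzyme of both conjugation systems, stood at -0.10 and Atg3, the E2-like enzyme for LC3, at -0.11 (standard errors 0.07 and 0.06). Atg12, the ubiquitin-like protein joined to Atg5, differed by -0.14 on the log2 scale, with a standard error of 0.13, since WT 4 read 9.01 where the other 7 arrays read 8.32 to 8.53. Without WT 4 the difference in Atg12 was 0.0021. Atg16l1, the membrane anchor of that complex, was at -0.03 and Atg4b, the protease that trims LC3, at -0.0093.

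LC3 and GABARAP proteins coat the autophagosome membrane and hold cargo receptors, and none of their 5 genes passed the threshold. Map1lc3b, the form most used as an autophagosome marker, read 11.62, 11.66, 11.70 and 11.52 in Sel1l-/- mice, against 11.51, 11.57, 11.83 and 11.61 in WT mice. These ranges overlapped almost fully, with a log2 fold change of -0.0037 (95% interval -0.19 to 0.18), and a nearly equally bright probe set for Map1lc3b gave -0.0074. Map1lc3a read 10.17, 10.41, 10.13 and 9.87 in Sel1l-/- mice, against 10.20, 10.25, 10.34 and 10.28 in WT mice. Its values were spread more widely in Sel1l-/- mice, where Sel1l-/- 2 gave the highest and Sel1l-/- 4 the lowest of all 8 arrays (log2 fold change -0.13, standard error 0.11).

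Gabarap read 12.59, 12.59, 12.57 and 12.61 in Sel1l-/- mice, against 12.53, 12.56, 12.56 and 12.52 in WT mice. The groups did not overlap on Gabarap, but the log2 fold change was only 0.05 (standard error 0.05, adjusted p = 0.725), and this gene had the smallest spread within groups of the whole set (pooled SD 0.02). Gabarapl1 read 11.36, 11.36, 11.41 and 11.19 in Sel1l-/- mice, against 11.33, 11.33, 11.58 and 11.36 in WT mice (log2 fold change -0.07, standard error 0.08). The lowest Gabarapl1 value was that of Sel1l-/- 4 and the highest that of WT 3. Gabarapl2 read 11.77, 11.75, 11.78 and 11.62 in Sel1l-/- mice, against 11.78, 11.75, 11.84 and 11.73 in WT mice, and Sel1l-/- 4 was again lowest (log2 fold change -0.05, standard error 0.06).

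Neither transcription factor passed the threshold, and the arrays of the genotypes overlapped for both. Tfeb read 8.40, 8.64, 8.40 and 8.79 in Sel1l-/- mice, against 8.47, 8.59, 8.19 and 8.70 in WT mice (log2 fold change 0.07, standard error 0.13, adjusted p = 0.854). Tfe3 read 9.70, 9.75, 9.64 and 9.86 in Sel1l-/- mice, against 9.62, 9.67, 9.34 and 9.71 in WT mice (log2 fold change 0.15, standard error 0.09, adjusted p = 0.500). Both were highest in mouse 4 of each genotype, and WT 3 was the lowest array for both. Activity of these factors is set largely by their phosphorylation and entry into the nucleus, which arrays do not measure.

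**Figure D2:**
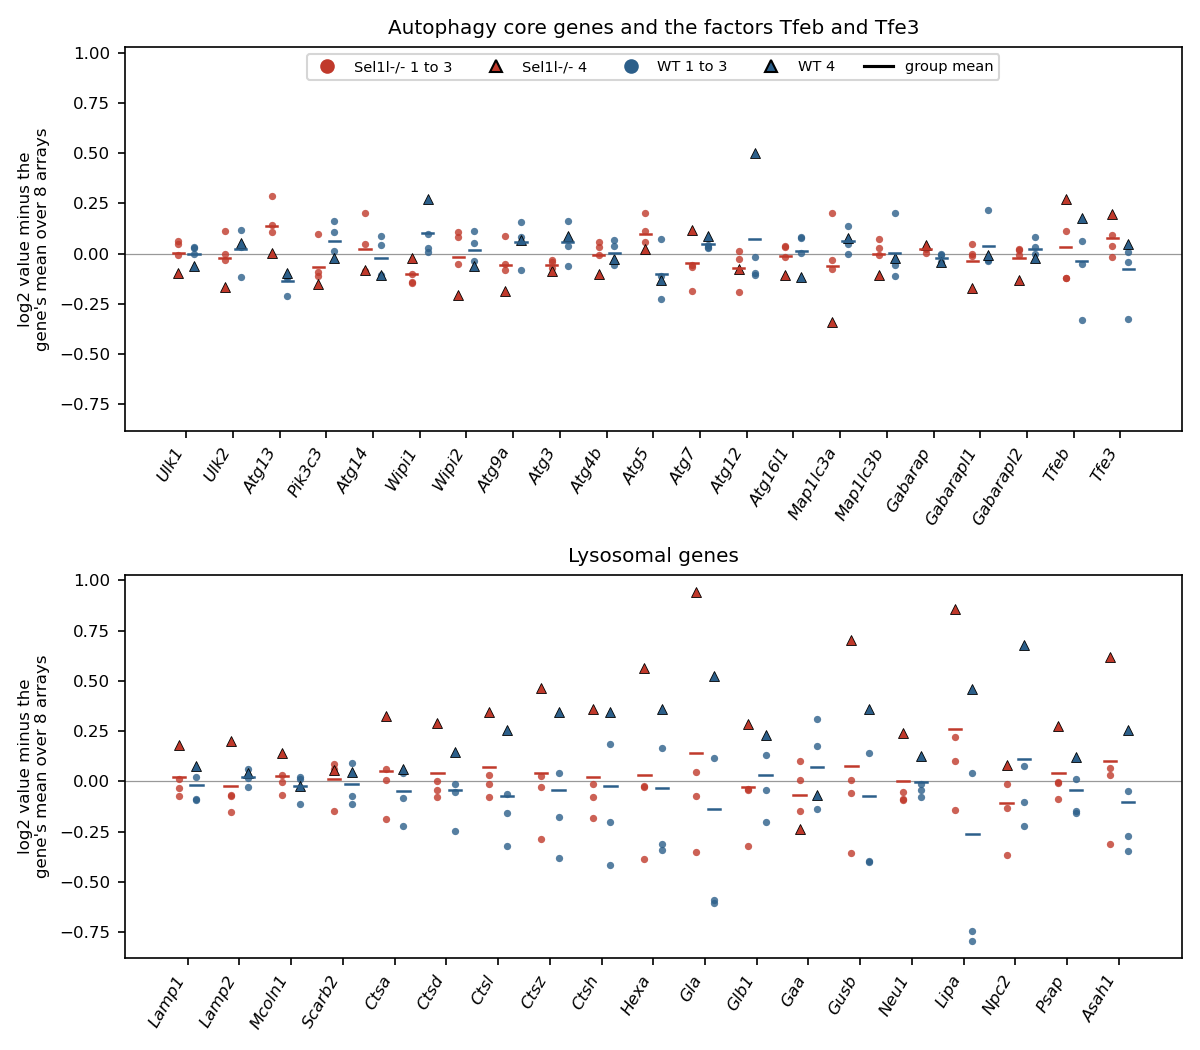
Log2 value of each gene on each array minus that gene's mean over all 8 arrays (y axis), with autophagy core genes and the transcription factors above and lysosomal genes below; red marks are Sel1l-/- and blue marks WT arrays, triangles are mouse 4 of each genotype and bars group means. Group means lie furthest apart for Lipa, by 0.52, while the arrays of Gla span 1.30 in Sel1l-/- mice and 1.13 in WT mice.

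Lysosomal genes were spread more widely among mice of a genotype than autophagy core genes were. The pooled SD within genotypes had a median of 0.22 over the 19 lysosomal genes, against 0.10 over the 19 autophagy core genes and 0.13 over all genes. In 15 of the 19 lysosomal genes, mouse 4 gave the highest value of its group in both genotypes, as it did in 2 of 19 autophagy core genes and in 12.6% of all genes. The exceptions were Lamp2, Mcoln1, Scarb2 and Gaa. This description was made after the values were seen. The mean of the 19 genes was 10.63, 10.78, 10.77 and 11.15 in Sel1l-/- mice 1 to 4, against 10.55, 10.83, 10.63 and 11.02 in WT mice 1 to 4.

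Most macrophage markers, like the lysosomal genes, were highest in mouse 4 of both genotypes, which was so for 10 of 15; no test was made of this likeness. Among the exceptions, Cd163, a scavenger receptor of macrophages, was lowest in mouse 4 of both genotypes (8.36 in Sel1l-/- 4 and 8.21 in WT 4), and Mertk, a receptor for dying cells, was lowest in WT 4 within its group. The mean of 15 such markers was 9.97, 10.42, 10.35 and 10.88 in Sel1l-/- mice 1 to 4, against 9.62, 10.38, 9.60 and 10.46 in WT mice 1 to 4. Mouse 4 had the highest mean in both genotypes, and mouse 1 was lowest in the Sel1l-/- group and near the lowest in WT. Of the 15 markers 14 had positive log2 fold changes and 0 passed in limma. Only Mertk, the negative one, had an unadjusted p under 0.05, as 15.0% of all genes had. No macrophage marker was near the bottom of the scale. The lowest value was 6.74 for Fcgr1 in WT 3, where the lower quartile of an array was 4.33 to 4.37. All 8 adipocyte markers had negative log2 fold changes, and 0 passed in limma. Of these only Adipoq had an unadjusted p under 0.05, beside 15.0% of all genes. Adipoq read lower on every Sel1l-/- array than on any WT array, as 5.07% of all genes did (log2 fold change -0.56, limma adjusted p = 0.0753). The adipocyte list mean was lowest in mouse 4 of both genotypes, at 12.62, 12.55, 12.60 and 12.24 in Sel1l-/- mice, against 12.78, 12.67, 12.76 and 12.54 in WT mice. The part of cell mix in these results was not tested, and in whole tissue fewer cells of a type cannot be told apart from less RNA per cell.

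**Figure D3:**
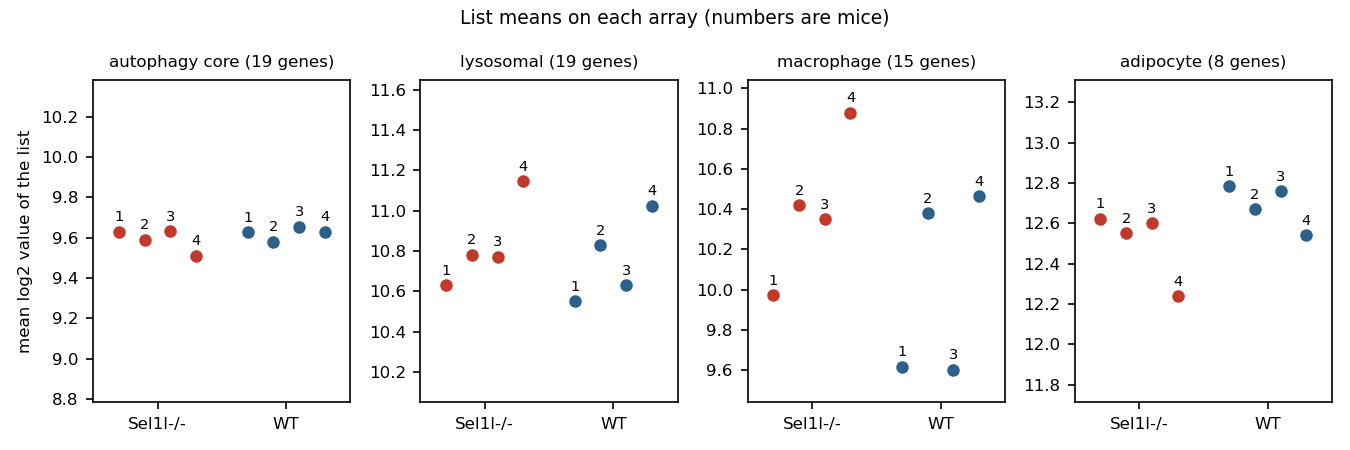
Mean log2 value on each array (y axis, equal spans) of the 19 autophagy core genes, the 19 lysosomal genes, 15 macrophage markers and 8 adipocyte markers, with Sel1l-/- arrays in red and WT arrays in blue and mice numbered. The autophagy core mean stays between 9.51 and 9.65, while the lysosomal and macrophage means are highest in mouse 4 of both genotypes.

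By the median SD of their role, the membrane proteins varied least among lysosomal genes. Lamp1 and Lamp2, the abundant glycoproteins of its membrane, had log2 fold changes of 0.04 and -0.05 (standard errors 0.07 and 0.08). Lamp2 ran from 11.55 to 11.91 in Sel1l-/- mice and from 11.68 to 11.77 in WT mice, so the WT arrays lay inside the Sel1l-/- range. Mcoln1, the calcium channel of the lysosome, stood at 0.05, and Scarb2, the receptor that delivers glucocerebrosidase to lysosomes, at 0.03 (standard errors 0.06 and 0.08).

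All 5 measured cathepsins had small positive log2 fold changes, between 0.04 and 0.14, none past the threshold. Ctsl, a cysteine protease, stood at 0.14 (standard error 0.14), with 12.12, 12.18, 12.23 and 12.54 in Sel1l-/- mice, against 11.88, 12.14, 12.04 and 12.45 in WT mice. Ctsd, the main aspartic protease of lysosomes, stood at 0.09 and Ctsa, a carboxypeptidase that also protects Glb1 and Neu1, at 0.10 (standard error 0.11 for each). The exopeptidases Ctsz and Ctsh were at 0.09 and 0.04, with standard errors of 0.19 and 0.18. Each of the 5 cathepsins was highest in mouse 4 of both genotypes. Their shared sign depended on the arrays and the fit. With 1 array left out the log2 fold change went down to -0.055 for Ctsz and -0.089 for Ctsh. Those of Ctsl, Ctsd and Ctsa stayed positive, the last 2 at 0.0022 and 0.0097 without Sel1l-/- 4. Blocking by code letter gave negative values for all 5, from -0.47 for Ctsz to -0.13 for Ctsa.

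Glycosidases, which strip sugars from glycolipids and glycoproteins, showed the same pattern among mice with 1 exception. Gla, the alpha-galactosidase, read 8.03, 8.43, 8.31 and 9.32 in Sel1l-/- mice, against 7.79, 8.50, 7.78 and 8.91 in WT mice. Its span within a genotype (1.30 in Sel1l-/- mice and 1.13 in WT mice) exceeded its difference between genotypes, 0.28 on the log2 scale (standard error 0.33). Gusb, the beta-glucuronidase, stood at 0.15 and Hexa, the alpha subunit of beta-hexosaminidase, at 0.06 (standard errors 0.25 and 0.23). Glb1, the beta-galactosidase, was at -0.06 and Neu1, a sialidase, at 0.0035 (standard errors 0.14 and 0.09).

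The exception was Gaa, the glucosidase that digests glycogen in lysosomes. Gaa read 10.25, 10.40, 10.49 and 10.16 in Sel1l-/- mice, against 10.26, 10.57, 10.70 and 10.33 in WT mice. Mouse 3 was highest in both genotypes, and the groups overlapped (log2 fold change -0.14, standard error 0.12, adjusted p = 0.645).

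Among the lipid-handling genes, the group means of Lipa and Npc2 differed in opposite directions, neither past the threshold. Lipa, the acid lipase that frees cholesterol and fatty acids in lysosomes, read 11.14, 11.50, 11.39 and 12.14 in Sel1l-/- mice, against 10.54, 11.33, 10.49 and 11.74 in WT mice. WT 1 and WT 3 were low while WT 2 and WT 4 lay within the Sel1l-/- range. The log2 fold change of Lipa was 0.52 (standard error 0.32, adjusted p = 0.505). The replicate block, whose pairs the labels do not state, gave Lipa an adjusted p of 0.0709 in limma. Its log2 fold change lay between 0.32 and 0.76 with 1 array left out, and at -0.42 when blocked by code letter. WT 1 and WT 3 were also the arrays with the lowest macrophage means, 9.62 and 9.60.

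Npc2, the soluble protein that hands cholesterol to the lysosomal membrane, read 10.53, 10.77, 10.89 and 10.98 in Sel1l-/- mice, against 10.68, 10.98, 10.80 and 11.58 in WT mice. WT 4 stood well above the other arrays, and the log2 fold change was -0.22 (standard error 0.19, adjusted p = 0.661). Without WT 4 it was -0.03, and when blocked by code letter, which leaves Sel1l-/- 1 and 2 against WT 4, it was -0.93. Psap, the precursor of the saposins that present lipids to hydrolases, was at 0.09 and Asah1, acid ceramidase, at 0.20 (standard errors 0.10 and 0.20).

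What the letters and numbers of the mouse codes stand for is not stated. Letter F is the only letter with both genotypes, Sel1l-/- 1 and 2 with WT 4. Within it the median log2 difference was 0.03 for autophagy core genes and -0.30 for lysosomal genes, and WT 4 is the WT array with the highest lysosomal and macrophage means. Within the numbers 5, 7 and 9 the lysosomal median was -0.03, 0.05 and 0.10, and the autophagy core median 0.04, -0.02 and -0.09.

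Further genes of the route were read from 5 lists. Of 18 measured other autophagy core genes 0 passed in limma. At an unadjusted p under 0.05 there were 2, beside 15.0% of all genes. Atg101, which pairs with Atg13 in the ULK complex, read 9.75, 9.26, 9.50 and 8.87 in Sel1l-/- mice, against 8.43, 8.51, 8.59 and 8.96 in WT mice. Sel1l-/- 4 and WT 4 crossed over, and the log2 fold change was 0.73 (standard error 0.19, adjusted p = 0.114). Array weights brought Atg101 past the threshold (adjusted p = 0.0332), and so did leaving out Sel1l-/- 4 (adjusted p = 0.0392). Its adjusted p was 0.118 with the replicate block, 0.141 with arrays centred and up to 0.257 with 1 array left out. The log2 fold change of Atg101 was 0.59 to 0.88 with 1 array left out and 0.55 when blocked by code letter. Nrbf2, a subunit of the Pik3c3 complex, stood at 0.31 (adjusted p = 0.265).

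In the proton pump that acidifies lysosomes, 0 of 15 measured subunits passed in limma, 11 with positive and 4 with negative log2 fold changes. An unadjusted p under 0.05 was found for 2, beside 15.0% of all genes. Atp6v1g1 stood at 0.28 (adjusted p = 0.139), with arrays that did not overlap. Atp6v0a1 stood at 0.40 (adjusted p = 0.255). With 1 array left out its adjusted p ran from 0.0469, without WT 4, to 0.445, and blocking by code letter gave a log2 fold change of -0.055. Mouse 4 was highest in both genotypes for 11 of the 15, beside the 12.6% of all genes.

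Among 28 measured further lysosomal genes 1 fell and 0 rose, beside 0.685% and 1.04% of all genes. Ctso, a cathepsin of the papain family, read 9.58, 9.62, 9.69 and 9.85 in Sel1l-/- mice, against 10.08, 10.01, 10.07 and 10.03 in WT mice, and the groups did not overlap. Its log2 fold change was -0.36 (standard error 0.07, adjusted p = 0.0421). The call held without Sel1l-/- 4 (adjusted p = 0.0171) and was lost without any other array (highest adjusted p = 0.138, without Sel1l-/- 2), and when blocked by code letter (0.265) or code number (0.189). The log2 fold change stayed between -0.42 and -0.33 with 1 array left out, and was -0.43 by letter and -0.36 by number.

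Of 7 measured genes that tag hydrolases with mannose 6-phosphate or sort them, 1 fell and 0 rose, beside the same 0.685% and 1.04% of all genes. Gga2, an adaptor that carries mannose 6-phosphate receptors from the Golgi towards lysosomes, read 9.69, 9.42, 9.42 and 9.32 in Sel1l-/- mice, against 10.06, 9.88, 9.87 and 9.88 in WT mice. The groups were apart, by -0.46 on the log2 scale (standard error 0.09, adjusted p = 0.0452). This call held without Sel1l-/- 1 (adjusted p = 0.0265) and was lost without any other array (highest adjusted p = 0.144, without Sel1l-/- 2), and when blocked by code letter (0.551) or code number (0.192). The log2 fold change stayed between -0.54 and -0.41 with 1 array left out, and was -0.32 by letter and -0.46 by number.

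Of 22 measured genes of nutrient sensing at the lysosome 0 passed in limma (5 at an unadjusted p under 0.05, a level that 15.0% of all genes reached). Rraga, a Rag GTPase that brings the kinase mTORC1 to lysosomes, read 8.92, 8.77, 8.71 and 8.84 in Sel1l-/- mice, against 8.55, 8.55, 8.53 and 8.41 in WT mice. Its groups did not overlap (log2 fold change 0.30, standard error 0.07, adjusted p = 0.0664). Tsc2, an inhibitor of mTORC1, stood at -0.21 (adjusted p = 0.148), again with arrays apart. Autophagic flux, lysosome number and enzyme activity were not measured.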

How the data were processed

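The authors deposited 1 table of 8 arrays with 35556 probe sets on a log2 scale, and per the submitters' processing notes RMA was used (background correction, quantile normalization, probe set summary). Values between 1.72 and 13.9 show the log2 scale. The sources used here do not give versions or annotation. RMA equalizes the arrays' distributions, so a shift shared by most genes is removed. Array medians were 6.10 to 6.14 in Sel1l-/- and 6.05 to 6.08 in WT mice.

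Platform annotation named 21218 probe sets with 1 symbol, of which 21185 were found by Entrez number in the RefSeq table of GRCm38.p6, which 0 symbols changed; 1881 had several symbols and 12457 were unnamed. The brightest probe set per gene was kept. Groups were compared with limma 3.58.1 (R 4.3.3; lmFit and eBayes), with two-sided p-values adjusted by Benjamini-Hochberg across 18820 genes; called means an adjusted p under 0.05. The fit was tested on simulated data. Figures used Python 3.11.15 and matplotlib 3.10.9.

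Members and lists were chosen with earlier results of these data known. Each measured member is named. All 8 values are given for the 3 smallest p in each group, the transcription factors and LC3 and GABARAP genes, and for a few others chosen after their values were seen. From the 5 further lists, genes past the threshold or else the 2 with the smallest p are named. Marker lists covered adipocytes, macrophages, lymphocytes, endothelium, fibroblasts, mesothelium and skeletal muscle. Alternatives were array centring, a dim filter, probe set means, array weights, blocks and leaving out each array. The titles number mice 1 to 4 in both groups without saying what a number shares. Across genes, deviations from the group mean had r of 0.518, 0.107, 0.363 and 0.524 for mice of like number. For other pairs r was -0.489 to 0.328, so the ranges overlap. Mice of like number share neither the letter nor the number of the mouse code. The replicate block takes like numbers as pairs, which the labels do not state and these same values cannot establish. Each p-value sets the difference between groups against the spread among mice within groups, which limma moderates across genes. With 4 arrays a group precision is limited.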

Additional observations from a re-analysis of the deposited data

Results flagged for a closer look

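An array far from the other 3 of its group was seen in 6 of 98 groups of 4 examined, and chance flags about 1 in 20. Among the members, Atg12 read 9.01 in WT 4, against 8.41 to 8.50 in the other WT arrays. Gabarapl1 read 11.58 in WT 3, against 11.33 to 11.36. Neu1 read 8.21 in Sel1l-/- 4, against 7.88 to 7.92 in the other Sel1l-/- arrays, and Scarb2 read 9.56 in Sel1l-/- 3, against 9.77 to 9.80. Outside the member list, Gga2 read 10.06 in WT 1, against 9.87 to 9.88, and Rraga read 8.41 in WT 4, against 8.53 to 8.55.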

How the results depend on the processing

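No member passed the threshold in any setting except Atg13 with array weights, which made the count of higher autophagy core genes 1. Signs of small differences were not stable. Blocking by code letter, which leaves Sel1l-/- 1 and 2 against WT 4, gave a lysosomal median of -0.30 and an autophagy core median of 0.029. It turned the log2 fold changes of 20 of 40 members: Wipi2 (0.090), Atg4b (0.051), Atg16l1 (0.13), Map1lc3a (0.0075), Map1lc3b (0.034), Gabarapl2 (0.029), Tfeb (-0.18), Lamp1 (-0.11), Ctsa (-0.13), Ctsd (-0.21), Ctsl (-0.30), Ctsz (-0.47), Ctsh (-0.39), Hexa (-0.57), Gla (-0.68), Gusb (-0.53), Neu1 (-0.20), Lipa (-0.42), Psap (-0.17) and Asah1 (-0.40). It also turned that of Atp6v0a1 (-0.055). With array weights those of Atg4b (0.029), Map1lc3b (0.042), Ctsh (-0.040), Hexa (-0.012) and Neu1 (-0.020) turned. With arrays centred on their medians those of Ulk1 (-0.037), Atg14 (-4.7e-05), Lamp1 (-0.00053), Scarb2 (-0.016) and Neu1 (-0.038) turned, and when blocked by code number those of Atg4b (0.0091), Map1lc3b (0.0056) and Ctsh (-0.019). Leaving out 1 array turned 17 members, within these ranges: Ulk1 -0.015 to 0.038, Ulk2 -0.090 to 0.0035, Atg14 -0.018 to 0.077, Wipi2 -0.075 to 0.029, Atg4b -0.031 to 0.023, Atg12 -0.20 to 0.0021, Atg16l1 -0.068 to 0.0055, Map1lc3b -0.042 to 0.062, Tfeb -0.029 to 0.14, Lamp1 -0.011 to 0.074, Scarb2 -0.0077 to 0.080, Ctsz -0.055 to 0.21, Ctsh -0.089 to 0.16, Hexa -0.11 to 0.20, Glb1 -0.16 to 0.040, Gusb -0.061 to 0.29 and Neu1 -0.075 to 0.046. With 1 array left out the autophagy core median was -0.063 to 0.0035 and the lysosomal median -0.011 to 0.14. The dim filter and the replicate block could turn no sign, since both leave each gene's log2 fold change as it was. Probe set means could alter only the 2 members with more than 1 probe set, Map1lc3b and Wipi2, and turned neither. The replicate block changed no call among members, Ctso or Gga2.

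Over all genes, 195 were higher and 129 lower; the counts were 119 and 154 with arrays centred, 347 and 219 with array weights, 358 and 367 with the replicate block, 7 and 13 with the letter block, 8 and 3 with the number block, and 66 to 244 and 31 to 140 with 1 array left out, which leaves fewer samples. The cause of the other shifts was not tested.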

Other observations

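Other marker lists give the tissue around these genes. All 6 endothelial markers had negative log2 fold changes and an unadjusted p under 0.05, which 15.0% of all genes had, and the arrays did not overlap for 4 of the 6, as for 10.3% of all genes, with a list mean of 9.61 to 9.93 in Sel1l-/- mice and 10.12 to 10.22 in WT mice, and 1 of them fell (Pecam1, an adhesion protein of endothelial cells, log2 fold change -0.39, limma adjusted p = 0.0290). The mean of 4 mesothelial markers was 9.29 to 9.96 in Sel1l-/- mice and 9.69 to 10.44 in WT mice. Of these 4, 0 passed the threshold in limma and 1 had an unadjusted p under 0.05, beside 15.0% of all genes. For 6 lymphocyte markers the list mean was 6.13 to 6.79 in Sel1l-/- mice and 6.46 to 7.01 in WT mice. Of these markers 4 had negative and 2 positive log2 fold changes. An unadjusted p under 0.05 was found for 2, Cd2 lower and Cd3d higher, beside 15.0% of all genes. Only Cd2, a T cell adhesion receptor, was called, and it fell (log2 fold change -0.65, limma adjusted p = 0.0456). Over all genes 0.685% were called lower, and the calls on Pecam1 and Cd2 were not followed in the other fits. The T cell receptor subunits Cd3d and Cd3e were at 0.19 and -0.10. Cd3d read only 4.36 to 4.76 over the 8 arrays, near the lower quartile of an array (4.33 to 4.37). The list mean of 6 fibroblast markers was 10.50 to 10.94 in Sel1l-/- mice and 10.60 to 11.04 in WT mice. For 5 skeletal muscle markers it was 5.11 to 5.38 in Sel1l-/- mice and 5.20 to 5.35 in WT mice. Both lists had 0 past the threshold in limma. At an unadjusted p under 0.05 there were 2 fibroblast and 0 muscle markers, beside 15.0% of all genes.

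Further lysosomal transcripts had a lower median spread among mice than the 19 lysosomal members. The median pooled SD was 0.15 over 28 further lysosomal genes and 0.13 over 15 proton pump genes, against 0.22 over the members and 0.13 over all genes. A pair of wide ones, chosen after their values were seen, is given as examples. Atp6v0d2, a proton pump subunit of osteoclasts and macrophages, read 10.21, 10.99, 10.66 and 12.07 in Sel1l-/- mice, against 8.80, 10.73, 8.12 and 11.42 in WT mice (log2 fold change 1.22, limma adjusted p = 0.503). Ctss, a cysteine protease of antigen-presenting cells, read 9.57, 10.34, 10.08 and 11.19 in Sel1l-/- mice, against 9.10, 10.33, 9.16 and 10.83 in WT mice.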
